A study of Rattus norvegicus with 6 samples.

Results

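The genes described here encode receptors of the innate immune system that recognise microbial or damage-derived molecules, and the adaptors that carry their signals. They are Tlr2, Tlr3, Tlr4, Cd14, Clec4e, Nod1, Nod2, Myd88, Ticam1 and Ripk2, taken by gene symbol whatever their level. All 10 were found among the 22573 gene rows used. Expression was measured by RNA sequencing in cells of the nucleus pulposus, the soft centre of a spinal disc, from Sprague Dawley rats. There were 3 libraries of cells under cyclic tensile strain, stretched by a Flexcell tension system to 18% elongation at 0.2 Hz for 24 h, and 3 control libraries. The stretching text is repeated for the controls, which only their class label sets apart, and they were read as not stretched. No label gave the age of the animals, a passage number, a batch or the animal or culture behind a replicate. The p-values thus reflect the spread among these libraries alone, and that spread may be technical.

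Toll-like receptors are membrane proteins that dimerise on binding a ligand and recruit adaptors through their intracellular TIR domain. TLR2 senses lipoproteins together with TLR1 or TLR6, TLR4 senses lipopolysaccharide with the help of LBP, CD14 and LY96 (MD-2), and TLR3 senses double-stranded RNA in endosomes. MYD88 serves most Toll-like receptors, whereas TICAM1 (TRIF) serves TLR3 and, through endosomes, TLR4. NOD1 and NOD2 are cytosolic sensors of bacterial peptidoglycan fragments that signal through the kinase RIPK2, and CLEC4E (Mincle) is a C-type lectin receptor that signals through the FcR gamma chain, SYK and CARD9. These routes converge on NF-kB, and in disc cells TLR2 and TLR4 are also studied as sensors of fragments of the extracellular matrix.

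The 10 genes did not move together. Tlr2, Ripk2, Nod2 and Clec4e were lower in strained cells and Tlr3 was higher, with groups that did not overlap for these 5 genes, whereas the strain and control values of Tlr4, Cd14, Nod1, Myd88 and Ticam1 overlapped. In bulk RNA such as this, fewer cells of a type and less RNA per cell cannot be told apart. FPKM, the unit of the values, counts fragments scaled to transcript length and to library size. Averaged over the 6 libraries, 8 genes reached 1 FPKM, and of these 2 were called lower, 1 was called higher and 5 were not called (limma on log2(FPKM + 1), adjusted p under 0.05 over 10180 tested genes). The same rule called 35.4% of all tested genes, 16.4% higher and 19.0% lower, so the share of 37.5% among these 8 genes is close to the background. Groups without overlap occurred in 3 of the 8 and in 51.9% of all tested genes. Over all genes 46.3% of the calls were rises, against 59.4% after scaling each library to the same upper quartile. The median log2 difference was -0.01 for the 8 genes and -0.01 for all tested genes. Nod2 and Clec4e lay under the 1 FPKM mean and were not part of these counts. With no filter on low values, 1 of the 10 genes was called higher and 4 were called lower, where this fit called 23.3% of 16152 genes. That background includes many genes under 1 FPKM, whereas 8 of these 10 genes reached it. The shares are thus not of genes at like levels, and no excess is read from them.

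**Figure D1:**
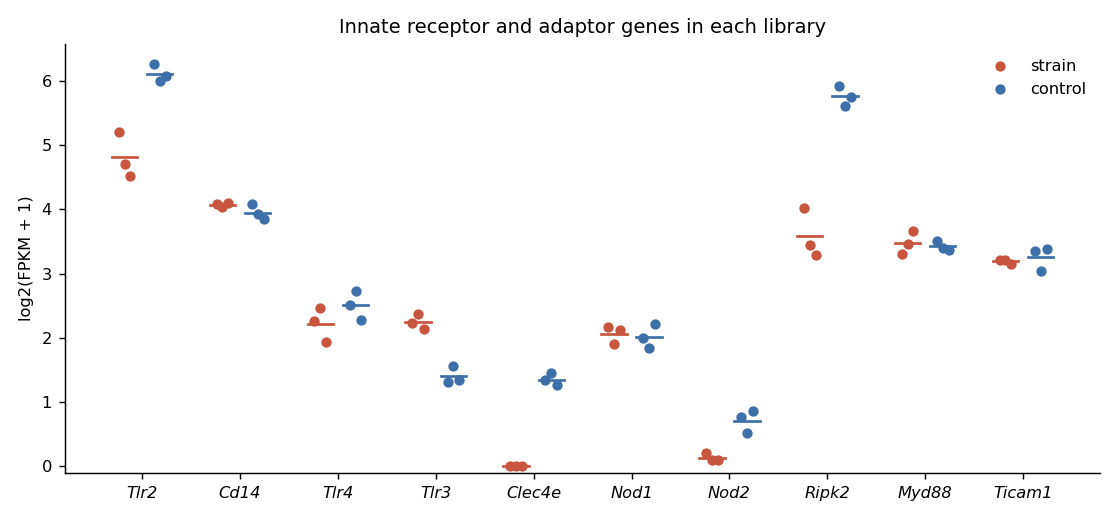
Level of each of the 10 genes in every library on the log2(FPKM + 1) scale, with strain libraries in red on the left and control libraries in blue on the right of each gene. Each point is 1 library and each bar is the mean of 3. The strain points lie below all control points for Tlr2, Clec4e, Nod2 and Ripk2, above them for Tlr3, and among them for the other 5 genes.

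Tlr2, the receptor for bacterial lipoproteins, was the most abundant of the 10 genes in both groups. Its level was 35.8, 25.1 and 21.9 FPKM in strain replicates 1, 2 and 3, against 75.7, 63.3 and 66.4 FPKM in control replicates 1, 2 and 3. Every strain library lay below every control library, and strain replicate 1 was the highest of the strained ones. Tlr2 averaged 27.6 ± 7.24 FPKM under strain and 68.5 ± 6.49 FPKM in controls (SD, n = 3 each), a fall of 2.48-fold. The log2 difference, strain minus control, was -1.31 ± 0.16 (SE; limma adjusted p = 0.00050). By level Tlr2 stood at percentile 81.8 of the tested genes in strained cells and at percentile 92.3 in controls.

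Tlr3, the endosomal receptor for double-stranded RNA, moved the other way. It was at 3.72, 4.17 and 3.40 FPKM in the 3 strain libraries, against 1.49, 1.96 and 1.55 FPKM in the 3 control libraries. The lowest strain value lay above the highest control value. Tlr3 averaged 3.76 ± 0.38 FPKM under strain and 1.67 ± 0.26 FPKM in controls (SD, n = 3 each), a rise of 2.26-fold, with a log2 difference of 0.84 ± 0.11 (SE; limma adjusted p = 0.00072). The fold is of mean FPKM, whereas the log2 difference is of FPKM + 1, which shrinks differences at such low levels. With 0.1 or 0.5 added in place of 1, the log2 difference was 1.13 or 0.98.

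Tlr4, the lipopolysaccharide receptor, was at 3.79, 4.56 and 2.84 FPKM under strain, against 4.73, 5.61 and 3.86 FPKM in controls. The groups overlapped, and the difference was not called (log2 difference -0.28, 95% interval -0.65 to 0.08; limma adjusted p = 0.20). Cd14, its co-receptor, which hands lipopolysaccharide to the receptor complex and also serves TLR2, was at 15.9, 15.5 and 16.1 FPKM under strain, against 15.9, 14.2 and 13.4 FPKM in controls. Its log2 difference of 0.12 was not called (95% interval -0.08 to 0.33; limma adjusted p = 0.33). The interval runs from 0.944-fold to 1.25-fold on the FPKM + 1 scale.

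The promoter sequences of Tlr2, which fell, of Nod1, which was not called, and of Tlr3, which rose, are shown because these 3 genes behaved differently and the first 2 hold a match to the binding motif of NF-kB. The sequences are those of RefSeq on the GRCr8 rat build, 250 bases before to 50 bases after the gene start, written 5′ to 3′ on the strand of the gene. Capitals mark matches to the NF-kB consensus motif on either strand. The windows are chr2:171504508-171504807 (minus strand) for Tlr2, chr4:85441625-85441924 (minus strand) for Nod1 and chr16:53554666-53554965 (plus strand) for Tlr3.
Tlr2: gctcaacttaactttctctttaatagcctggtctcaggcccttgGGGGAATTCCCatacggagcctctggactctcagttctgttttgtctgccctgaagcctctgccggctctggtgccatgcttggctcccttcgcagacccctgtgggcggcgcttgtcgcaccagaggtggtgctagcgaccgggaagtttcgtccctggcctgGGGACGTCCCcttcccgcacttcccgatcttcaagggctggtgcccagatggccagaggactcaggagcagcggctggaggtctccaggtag
Nod1: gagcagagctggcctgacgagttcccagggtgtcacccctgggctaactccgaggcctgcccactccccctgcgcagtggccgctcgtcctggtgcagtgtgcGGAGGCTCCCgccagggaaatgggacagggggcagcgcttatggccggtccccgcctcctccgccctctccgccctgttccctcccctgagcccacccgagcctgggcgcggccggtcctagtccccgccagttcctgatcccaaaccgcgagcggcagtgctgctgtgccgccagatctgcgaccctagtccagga
Tlr3: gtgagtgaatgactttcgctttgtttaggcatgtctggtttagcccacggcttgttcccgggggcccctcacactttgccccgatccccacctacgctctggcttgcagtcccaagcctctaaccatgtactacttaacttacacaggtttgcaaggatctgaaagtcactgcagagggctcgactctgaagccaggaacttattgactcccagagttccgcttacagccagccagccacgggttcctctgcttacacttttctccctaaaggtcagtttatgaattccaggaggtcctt

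Of the 10 genes, 7 matched an entry of the promoter table (Tlr2, Tlr3, Tlr4, Cd14, Myd88, Nod1 and Clec4e). The NF-kB motif was found in 2 of these windows and in 7.51% of all 33469 promoter windows of the same length. Tlr2 had 3 matches, of which 2 overlap, starting 206 and 205 bases before the gene start, and the third starts 42 bases before it. Nod1 had 1 match, 147 bases before the gene start. A motif for interferon regulatory factors (GAAA, any 2 bases, GAAA) stood in 1 of the 7 windows, that of Myd88, and in 3.92% of all windows. The AP-1 motif (TGANTCA) stood in that same window of Myd88 and in 7.33% of all windows. Both strands were searched for each motif. The NF-kB motif was thus present at Tlr2, which fell, and at Nod1, which was not called. It was absent from the window of Clec4e, also lower under strain, and Ripk2 and Nod2 had no window to search. A match describes only letters in the window.

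Clec4e, the C-type lectin receptor Mincle, was listed at 0 FPKM in strain replicates 1, 2 and 3, against 1.54, 1.74 and 1.40 FPKM in control replicates 1, 2 and 3. Of all 22573 rows, 3 were listed at 0 in every strain library and at 1 FPKM or more in every control library, Clec4e among them, and the other two carry provisional LOC symbols. No gene was listed the other way round. The criterion repeats the pattern of Clec4e itself, so the small count is not a further result about it. None of 29 genes that every cell uses, such as Actb and Gapdh, was listed at 0 in any library. This does not bear on a 0 for a gene with a level as low as that of Clec4e. Without a filter on low values, limma called Clec4e lower (adjusted p = 0.00052), and this fit called 12.6% of 16152 genes lower. The exact two-sided permutation test gave p = 0.10, the smallest that 3 against 3 libraries allow. Because the files give no read totals, the depth behind a 0 is unknown and no fold is given.

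Nod2, the receptor for muramyl dipeptide, was at 0.162, 0.0672 and 0.0672 FPKM in the 3 strain libraries, against 0.701, 0.428 and 0.820 FPKM in the 3 control libraries. The highest strain value, in replicate 1, lay below the lowest control value, and all 6 values were under 1 FPKM. In the fit without a filter, limma called Nod2 lower (adjusted p = 0.0074), and the exact two-sided permutation test gave p = 0.10. Nod1, the related receptor for a diaminopimelic acid peptide, was at 3.49, 2.73 and 3.34 FPKM under strain, against 2.99, 2.59 and 3.63 FPKM in controls. These groups overlapped, and the log2 difference of 0.04 (95% interval -0.24 to 0.33) was not called (limma adjusted p = 0.81).

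Ripk2, the kinase that both NOD receptors recruit, showed the largest difference of the 8 tested genes. It was at 15.2, 9.91 and 8.79 FPKM in the 3 strain libraries, against 59.4, 47.8 and 53.1 FPKM in the 3 control libraries. No strain value came near the control range, and strain replicate 1 was again the highest of the strained libraries. Ripk2 averaged 11.3 ± 3.42 FPKM under strain and 53.4 ± 5.82 FPKM in controls (SD, n = 3 each), a fall of 4.73-fold, with a log2 difference of -2.18 ± 0.18 (SE; limma adjusted p = 6.3e-05). Without strain replicate 1 the strain mean was 9.35 FPKM. In percentiles of the tested genes Ripk2 stood at 61.2 in strained cells and at 90.0 in controls.

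Myd88 and Ticam1, the adaptors of the Toll-like receptors, were not called. Myd88 was at 8.94, 10.1 and 11.6 FPKM under strain, against 10.4, 9.53 and 9.35 FPKM in controls, and the strain values spanned the whole control range. Its log2 difference was 0.05 (95% interval -0.20 to 0.30; limma adjusted p = 0.74). Ticam1 was at 8.25, 8.31 and 7.86 FPKM under strain, against 9.20, 7.25 and 9.48 FPKM in controls, so that the control values enclosed the strained ones. Its log2 difference was -0.07 (95% interval -0.32 to 0.18; limma adjusted p = 0.66). On the FPKM + 1 scale these intervals run from 0.874-fold to 1.23-fold for Myd88 and from 0.800-fold to 1.13-fold for Ticam1, so smaller changes than these bounds could not be told from none.

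**Figure D2:**
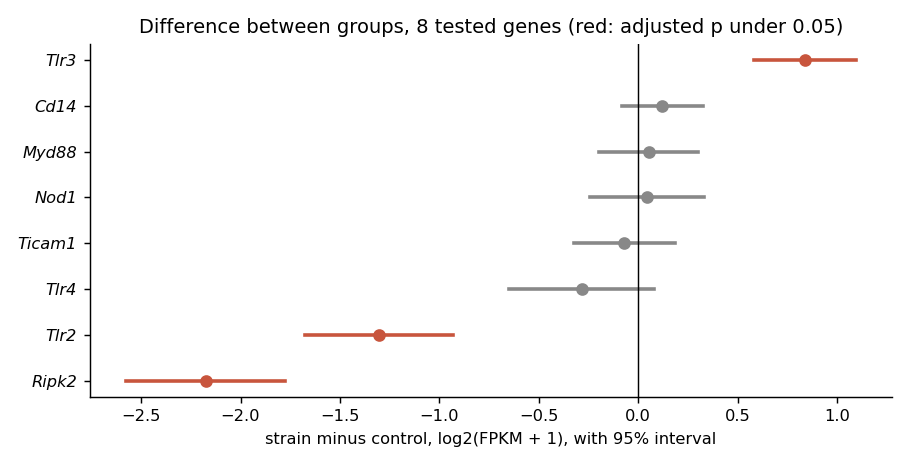
Difference between the groups, strain minus control on the log2(FPKM + 1) scale, for the 8 genes that passed the filter, with 95% intervals from limma. Red marks adjusted p under 0.05 over all tested genes and grey marks the rest. Ripk2 at -2.18 and Tlr2 at -1.31 lie left of 0, Tlr3 at 0.84 lies right of it, and the other 5 intervals cross 0.

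The order of the genes by level, read from FPKM because it is scaled to transcript length, differed between the groups. How well the values of different genes compare in these files was not tested. In strained cells the order of mean FPKM was Tlr2, Cd14, Ripk2, Myd88, Ticam1, Tlr3, Tlr4, Nod1, Nod2 and Clec4e. In controls it was Tlr2, Ripk2, Cd14, Myd88, Ticam1, Tlr4, Nod1, Tlr3, Clec4e and Nod2. Among strained libraries the ranges of Ripk2 and Myd88, of Tlr3 and Tlr4, and of Tlr4 and Nod1 overlapped, so those neighbours did not differ beyond their spread. Among controls this held for Myd88 and Ticam1 and for Tlr3 and Clec4e. The 10 genes summed to 75.9 to 95.2 FPKM in strained cells and to 154 to 182 FPKM in controls, and Tlr2 with Ripk2 made up 40.4% to 53.5% of that sum under strain and 71.9% to 74.2% in controls.

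Ratios within a library do not depend on how the library was scaled, and 7 of them were computed between pairs of these genes, not all of them a receptor and its partner. They were chosen with the members' values known. The ratio of Tlr2 to Tlr4 was 9.45, 5.52 and 7.71 in the 3 strain libraries, against 16.0, 11.3 and 17.2 in the 3 control libraries. Tlr2 per Myd88 averaged 2.79 ± 1.09 under strain and 6.997 ± 0.32 in controls, and Tlr2 per Cd14 1.74 ± 0.45 under strain and 4.72 ± 0.25 in controls (SD, n = 3 each). Each of these 3 ratios was lower in every strain library than in every control library.

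Tlr3 relative to its adaptor Ticam1 stood at 0.451, 0.501 and 0.433 under strain, against 0.162, 0.271 and 0.163 in controls. Tlr3 relative to Tlr2 averaged 0.142 ± 0.033 under strain and 0.0247 ± 0.0058 in controls (SD, n = 3 each). Ripk2 per Nod1 was 4.35, 3.63 and 2.63 under strain, against 19.9, 18.5 and 14.6 in controls. Ripk2 per Tlr2 was 0.425, 0.394 and 0.401 under strain, against 0.784, 0.755 and 0.800 in controls, the narrowest spread of the 7 ratios within either group relative to its mean. The groups did not overlap for any of these 7 ratios. Each gave an exact two-sided permutation p = 0.10, the smallest that 3 against 3 libraries allow, so none can reach 0.05 before or after adjustment. Every ratio has Tlr2, Tlr3 or Ripk2 as numerator, genes whose own groups did not overlap. The separation of the ratios thus largely follows from that choice and is not a further result.

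**Figure D3:**
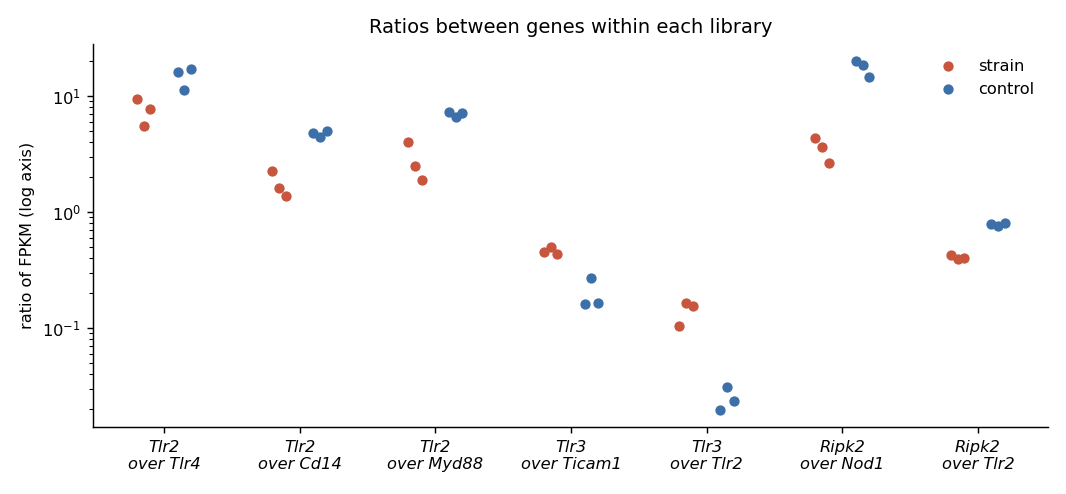
Ratio of the FPKM values of gene pairs within each library, on a log axis, with strain libraries in red on the left and control libraries in blue on the right of each pair. Each point is 1 library. Strain points lie above control points for Tlr3 over Ticam1 and Tlr3 over Tlr2 and below them for the other 5 pairs.

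The 3 tested genes whose profile over the 6 libraries lay nearest to that of Ripk2, by root mean square distance of centred log2(FPKM + 1) values, were Cxcl1 (0.073), Slc20a1 (0.075) and Tfpi2 (0.086). Cxcl1, a neutrophil-attracting chemokine, averaged 2927 ± 810 FPKM under strain and 12290 ± 1272 FPKM in controls (SD, n = 3 each). Slc20a1, a phosphate transporter, and Tfpi2, an inhibitor of serine proteases, fell 4.82-fold and 4.91-fold. Nearest to Tlr3 were Dock8 (0.034), a guanine nucleotide exchange factor, Fn1 (0.036), which encodes fibronectin, and Cd109 (0.045), a cell surface glycoprotein, which rose 2.07-fold, 1.85-fold and 1.83-fold. Since these genes were picked by their profile over the same 6 libraries, folds like those of Ripk2 and Tlr3 follow from the choice.

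Partners of the receptors were read from lists of pathway genes. These lists were chosen with earlier results of these data known, so a share of calls above the background is no independent support. Of 9 accessory genes, 6 were tested, of which 3 rose and 2 fell (median log2 difference 0.24), where 16.4% of all tested genes rose and 19.0% fell. Lbp, whose protein carries lipopolysaccharide to CD14, was at 136, 120.3 and 119 FPKM under strain, against 59.9, 55.0 and 51.1 FPKM in controls, a rise of 2.26-fold (limma adjusted p = 7.4e-05). Unc93b1, which brings TLR3 and other endosomal receptors to the endosome, rose 1.71-fold to 8.39 ± 1.14 FPKM (limma adjusted p = 0.0021). Hsp90b1 (gp96), a chaperone of many Toll-like receptors, fell 1.53-fold. In the family of its co-chaperone, Cnpy4 rose 1.36-fold, whereas Cnpy3 was not called. Cnpy3 was at 31.4 ± 4.68 FPKM under strain and 30.0 ± 3.20 FPKM in controls (SD, n = 3 each; limma adjusted p = 0.73). Ly96 was at 10.3 ± 0.94 FPKM under strain and 12.8 ± 0.58 FPKM in controls (SD, n = 3 each; limma adjusted p = 0.042), a call lost in 9 of 14 alternatives (adjusted p 0.013 to 0.14).

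Of 29 other pattern receptors listed, 28 were in the files and only 4 passed the filter, of which 2 fell and 0 rose (median log2 difference -0.47), where 19.0% of all tested genes fell and 16.4% rose. Nlrp3, the sensor of the best-known inflammasome, was at 9.96, 5.06 and 4.04 FPKM under strain, against 38.7, 32.4 and 41.9 FPKM in controls, a fall of 5.93-fold (limma adjusted p = 0.00049). Nlrx1, a NOD-like protein of mitochondria, fell 1.72-fold (limma adjusted p = 0.0018). The helicase sensors Ddx58 (1.93 ± 0.19 FPKM under strain, 1.42 ± 0.28 FPKM in controls) and Ifih1 (1.04 ± 0.31 FPKM under strain, 1.36 ± 0.25 FPKM in controls) were not called. Tlr6, a partner of TLR2, lay under the filter at 0.723, 1.08 and 0.890 FPKM under strain, against 0.179, 0.314 and 0.272 FPKM in controls, and limma without a filter called it higher (adjusted p = 0.0058). Tlr1, the other partner, did not exceed 0.060 FPKM in any library. Tlr6 and Tlr1 were chosen after their values were seen.

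Signalling adaptors and kinases were lower more often than higher: of 29 tested of 37, 14 fell and 3 rose (median log2 difference -0.34, against -0.01 over all tested genes), or 58.6% called against the background of 35.4%. Birc3, a ubiquitin ligase that modifies RIPK2, fell 7.85-fold to 2.11 ± 0.90 FPKM, against 16.6 ± 2.75 FPKM in controls (limma adjusted p = 5.4e-05). Irak2, a kinase downstream of MYD88, fell 2.48-fold, the ubiquitin ligase gene Peli1 2.19-fold and Tbk1, the kinase that acts after TICAM1, 1.72-fold. Irak1, another kinase downstream of MYD88, was at 27.1 ± 1.02 FPKM under strain and 27.2 ± 1.72 FPKM in controls (SD, n = 3 each; limma adjusted p = 0.99). The 3 rises were Pycard (2.44, 2.49 and 1.07 FPKM under strain, against 0, 0.763 and 0.135 FPKM in controls), the inflammasome adaptor, which passed the filter only through the strained libraries, Irf3 (1.35-fold), the transcription factor that TBK1 activates, and Ikbke (1.24-fold), a kinase related to TBK1. The call of Ikbke was lost in 6 of 14 alternatives and that of Irf3 in 1 of 14.

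Followed along single routes, with genes outside the naming rule chosen after their values were seen, receptors and their partners differed in how they changed. On the NOD route, Birc2, a ubiquitin ligase that acts on RIPK2, was lower, at 9.08 ± 1.56 FPKM under strain and 18.2 ± 2.46 FPKM in controls (SD, n = 3 each; limma adjusted p = 0.0013). Xiap was at 5.08 ± 1.40 FPKM under strain and 7.82 ± 0.39 FPKM in controls (SD, n = 3 each; limma adjusted p = 0.027), a call lost in 5 of 14 alternatives. Peli3, another ligase gene that has been tied to RIPK2, was at 1.29 ± 0.16 FPKM under strain and 1.31 ± 0.04 FPKM in controls and was not called (SD, n = 3 each; limma adjusted p = 0.91).

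On the CLEC4E route, Syk, the kinase that the receptor complex engages, was at 0.0528, 0.0840 and 0.121 FPKM under strain, against 0.719, 0.518 and 1.03 FPKM in controls, all under or near 1 FPKM (limma without a filter, adjusted p = 0.0060). Fcer1g, the FcR gamma chain, was at 0.710, 0.933 and 0.715 FPKM under strain, against 0.497, 0.200 and 0.615 FPKM in controls, and was not called without a filter (limma adjusted p = 0.11). Of the 3 proteins of the complex downstream of SYK, Bcl10 was lower (12.7 ± 1.07 FPKM under strain, 17.3 ± 1.60 FPKM in controls; limma adjusted p = 0.012), and Card9 (6.11 ± 1.29 FPKM under strain, 5.12 ± 1.15 FPKM in controls) and Malt1 (1.48 ± 0.27 FPKM under strain, 2.02 ± 0.34 FPKM in controls) were not called.

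On the MYD88 route, the bridging adaptor gene Tirap was at 1.27 ± 0.27 FPKM under strain and 1.30 ± 0.24 FPKM in controls, and the kinase gene Irak4 at 5.21 ± 0.62 FPKM under strain and 4.64 ± 0.26 FPKM in controls, with neither called. Traf6, the ubiquitin ligase that IRAK kinases activate, was lower at 2.88 ± 0.92 FPKM under strain and 4.86 ± 0.41 FPKM in controls (SD, n = 3 each; limma adjusted p = 0.022), a call lost in 3 of 13 alternatives. Also lower among the listed adaptors and kinases was Chuk (7.46 ± 0.87 FPKM under strain, 11.5 ± 0.79 FPKM in controls; limma adjusted p = 0.0038). Ikbkb (limma adjusted p = 0.0081) and Tab2 (limma adjusted p = 0.019) were lower too, whereas Tab1, Tab3 and Ikbkg were not called.

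Negative regulators of these routes had 9 falls and 1 rise among 13 tested of 15 (median log2 difference -0.66), or 76.9% called, against 35.4% of all tested genes. Atf3, among the falls (0.953 ± 0.099 FPKM under strain, 10.6 ± 5.71 FPKM in controls), passed the filter only through the controls. Tnfaip3 (A20), a ubiquitin-editing enzyme that restrains RIPK2 and NF-kB signalling, was at 6.13, 3.06 and 2.19 FPKM under strain, against 29.6, 26.1 and 21.3 FPKM in controls, a fall of 6.77-fold (limma adjusted p = 0.00050). Its binding partner Tnip1 fell 2.53-fold, Irak3, an inactive kinase that holds back MYD88 signalling, 1.97-fold, and Zc3h12a, an RNase that degrades cytokine mRNAs, 1.94-fold. The 1 rise was the docking protein gene Dok1 (1.46-fold), a call lost in 3 of 14 alternatives. The count of 10 calls in this list was 8 without control replicate 1, without control replicate 3 or with no filter on low values.

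Genes for endogenous ligands, or for the enzymes that make them, had 2 rises and 2 falls among 7 tested of 12 (median log2 difference 0.19), or 57.1% called against 35.4% of all tested genes. Bgn, whose protein biglycan can activate TLR2 and TLR4 once it is released from the matrix, averaged 1787 ± 128 FPKM under strain and 1280.0 ± 52.7 FPKM in controls (SD, n = 3 each; limma adjusted p = 0.010), and its call was lost in 2 of 14 alternatives. Fn1 rose 1.85-fold, and Has2, a hyaluronan synthase, fell 3.46-fold. Hspd1, a mitochondrial chaperone, was lower by 1.22-fold, a call lost in 7 of 14 alternatives. The count of 4 calls was 2 without control replicate 1 and 2 without control replicate 3. Hmgb1, a chromatin protein found in nearly every cell, was listed at only 0.170 ± 0.073 FPKM under strain and 0.274 ± 0.060 FPKM in controls, so a value near 0 in these files does not by itself mean that a gene was silent.

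**Figure D4:**
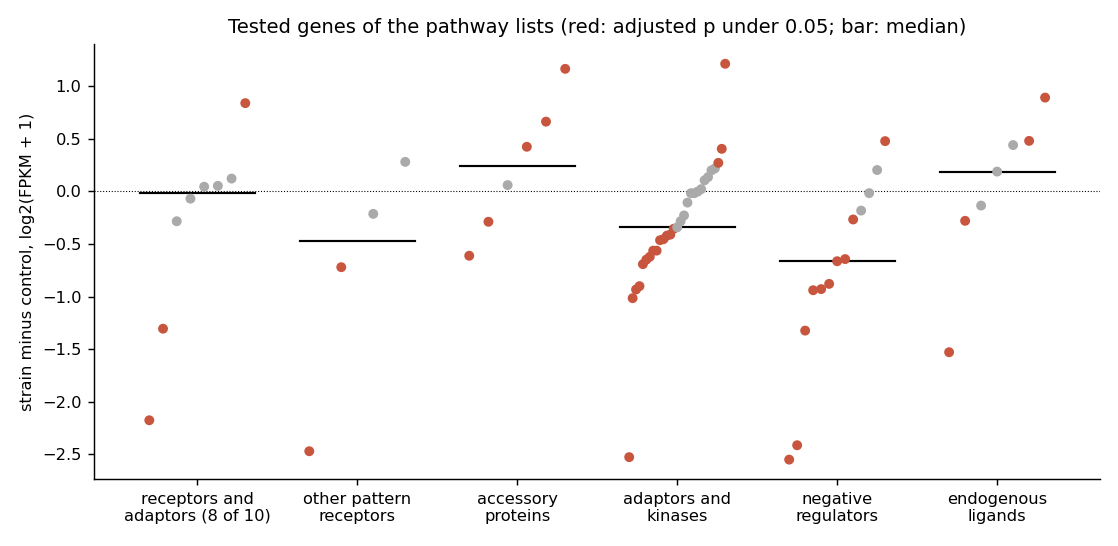
Difference between the groups, strain minus control on the log2(FPKM + 1) scale, for the tested genes of the receptors and adaptors described here and of 5 lists of pathway genes. Each point is 1 gene, red where the adjusted p was under 0.05, and each bar is the median of the list. The negative regulators have the lowest median, -0.66, and the accessory proteins the highest, 0.24.

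Several of these receptors are best known from macrophages, so markers of other cells were read in the same libraries. Of 20 leukocyte and macrophage markers, 4 passed the filter, and the list summed to 6.43 to 9.78 FPKM under strain and to 6.48 to 11.1 FPKM in controls. Cd53 (0.160 ± 0.059 FPKM under strain, 2.36 ± 0.48 FPKM in controls), Cd68 (0.633 ± 0.147 FPKM under strain, 1.53 ± 0.42 FPKM in controls) and Adgre1 (1.31 ± 0.10 FPKM under strain, 3.71 ± 1.92 FPKM in controls) were called lower, the last losing its call in 6 of 13 alternatives, and Lyz2 (3.30 ± 1.62 FPKM under strain, 0.249 ± 0.142 FPKM in controls) was called higher. Cd53, Cd68 and Lyz2 passed the filter only through the group in which they were high, so the counts of calls in this list are no support for a direction. Without a filter, 2 of the list were called higher, Lyz2 and Coro1a (1.44 ± 0.25 FPKM under strain, 0.450 ± 0.235 FPKM in controls), and 2 lower, Cd53 and Cd68. The defining leukocyte marker Ptprc did not exceed 0.049 FPKM and Csf1r 0.102 FPKM in any library, and Cd163, C1qa, C1qb and Cx3cr1 were listed at 0 in all 6. The markers of this list thus went both ways, and the part of such cells in the values of Tlr2, Nod2, Clec4e and the other receptors was not tested. None of 10 endothelial markers and none of 12 blood cell markers passed the filter.

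Of 18 nucleus pulposus markers, 11 passed the filter, 8 of them called higher and 1 lower, where 16.4% of all tested genes were called higher and 19.0% lower. Pax1 (10.3 ± 1.08 FPKM under strain, 3.46 ± 0.40 FPKM in controls) was called higher. Acan (38.6 ± 3.18 FPKM under strain, 31.1 ± 10.6 FPKM in controls) was expressed but not called. The 1 called lower was Cdh2 (13.1 ± 0.52 FPKM under strain, 18.1 ± 0.38 FPKM in controls). Col2a1 lay under the filter (0.898 ± 0.485 FPKM under strain, 0.0423 ± 0.0294 FPKM in controls). T (brachyury), Krt18 and Krt19 stayed near 0, although Krt8 was at 8.34 ± 2.52 FPKM under strain and 4.19 ± 1.28 FPKM in controls. Shh and Noto were listed at 0. Strain replicate 1 was the strained library closest to the controls for Tlr2, Ripk2 and Nod2, and also along the main axis of variation between libraries (78.6% of the variance). Leaving out strain replicate 1 gave log2 differences of -1.50 for Tlr2, -2.39 for Ripk2 and 0.84 for Tlr3, and all 3 calls remained when any single library was left out.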

How the data were processed

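RNA of nucleus pulposus cells was extracted with TRIzol and prepared for Illumina sequencing, per the labels' protocols. The submitters' processing notes name HISAT2 2.0.4, Cufflinks, Cuffdiff 2.2.1, DESeq and cutadapt 1.9.3, without order or role, and as build only hg19, a human build, although the symbols are rat ones. The authors deposited 1 value per gene, taken here as FPKM, since the values are not whole numbers. They summed to 309497 to 348238 per library. Low values (0.003 to 0.06 FPKM) did not fall into shared steps: 2.40% to 12.7% of them lay within 0.01 log2 units of the most frequent ratio of 2 libraries. Read totals are therefore unknown, and no counting interval is given. No label names a batch.

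Of 22601 rows, 27 with a symbol turned into a date and 1 broken row were left out. limma 3.58.1 in R 4.3.3 fitted log2(FPKM + 1) of the 10180 genes averaging 1 FPKM or more, with trend and robust moderation, two-sided, and Benjamini-Hochberg adjustment over all of them (threshold 0.05). The fit was also run on simulated data, with independent noise and far fewer changed genes than were called here. That run does not measure the error rate in these data. Folds are ratios of mean FPKM, given where both means reach 1 FPKM. The alternatives were pseudocounts of 0.1 and 0.5, filters of none and 5 FPKM, quantile and upper quartile scaling, moderation that was neither trended nor robust, a replicate block, and leaving out each library.

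The members, the lists and the tests were chosen with earlier results of these data known. Named are all 10 members, up to 4 called genes with the smallest p in each direction of each of the 5 pathway lists, and the 3 nearest profiles to the member with the largest fall and the one with the largest rise. Other genes were chosen after their values were seen.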

Additional observations from a re-analysis of the deposited data

How the results depend on the processing

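The calls of Tlr2, Ripk2 and Tlr3 kept their direction and their side of the threshold in every alternative in which they were tested (limma adjusted p 5.2e-05 to 0.0038 for Tlr2, 6.0e-06 to 0.0010 for Ripk2 and 0.00050 to 0.0050 for Tlr3). Tlr4, Cd14, Nod1, Myd88 and Ticam1 were called in none. Without a filter on low values the count of called receptors and adaptors was 5 in place of 3 and that of the other pattern receptors 4 in place of 2, since genes under the filter entered. The log2 difference of Ticam1 changed sign with upper quartile scaling (0.00041).

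With single libraries left out, the log2 difference ranged from -1.50 to -1.16 for Tlr2, from 0.78 to 0.92 for Tlr3, from -0.41 to -0.14 for Tlr4, from 0.07 to 0.18 for Cd14 and from -2.39 to -2.03 for Ripk2. It ranged from -0.04 to 0.14 for Nod1 and from -0.04 to 0.14 for Myd88, both of which changed sign (Nod1 -0.0083 without strain replicate 1 and -0.043 without control replicate 2, Myd88 -0.037 without strain replicate 3), and from -0.18 to -0.0056 for Ticam1. The difference of mean FPKM ranged from -1.64 to -1.47 for Clec4e and from -0.66 to -0.47 for Nod2. The count of all called genes ranged from 2363 (without control replicate 1) to 3572, against 3608, and that of the endogenous ligands from 2 to 5, against 4. The cause of these shifts was not tested, beyond the smaller number of samples.

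No label says that equal replicate numbers pair samples, and the deviations of same-numbered libraries correlated at 0.033, 0.108 and -0.116. With the replicate block 3116 genes and the same 3 receptors and adaptors were called. Of the 23 called pathway genes chosen by rule, 17 kept their call in every alternative that tested them and 6 lost it in at least 1, with 0 changes of sign. The unknown depth limits what the low values of Nod2 and Clec4e can show.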
